A study of Mus musculus with 1 sample.

Results

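Gata1, Gata2 and Zfpm1 are 3 of the 32285 genes counted in 1 single-cell RNA-seq library of mouse bone marrow progenitors. They were taken by their symbols, in a choice made with earlier results of these data known. The cells were lineage-negative and Kit-positive marrow of femora and tibiae, in which blood stem cells are found beside early precursors of each lineage. They came from control mice of the C57BL/6 strain with floxed Brd9 alleles (Brd9fl/fl) and, per the methods of the study, no Mx1-Cre, so Brd9 was intact. The controls had been given polyinosinic-polycytidylic acid (pIpC), an inducer of interferon, in 3 doses of 20 mg/kg, and cells were taken 8 weeks later. The labels of the sample name a CD45.2(+) Brd9fl/fl donor and a CD45.1(+) CD45.2(-) recipient, whereas the text of the series speaks of primary mice injected 4 weeks after birth and the methods mention no transplant for this library. Which applies, and the age at injection, were not settled. The number of animals behind the library is not given in the sources used here. The library with Brd9 deleted is not analysed here, so each comparison is between groups of cells within this library, with no replicates and no test.

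GATA1 and GATA2 are zinc finger transcription factors that bind the same short DNA motif, and Zfpm1 encodes FOG1, a protein that binds the amino-terminal finger of GATA factors and recruits the NuRD and CtBP co-repressors. Gata2 is known for maintaining stem and early progenitor cells and for its role in mast cells and basophils. Gata1 is needed for red cells, megakaryocytes, eosinophils and mast cells. In the textbook account of red cell development GATA1 takes the place of GATA2 at shared sites, the Gata2 gene among them, which is called the GATA switch, and FOG1 is needed for that step and for megakaryocytes.

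In the GENCODE M21 annotation of the GRCm38 build, Gata2 (ENSMUSG00000015053) spans chromosome 6, 88193891 to 88207032, plus strand. Gata1 (ENSMUSG00000031162) spans chromosome X, 7959260 to 7978071, minus strand. Zfpm1 (ENSMUSG00000049577) spans chromosome 8, 122282141 to 122337251, plus strand. All are protein-coding. Neither GATA gene overlaps another annotated gene, whereas the locus Gm20388 spans Zfpm1 on its strand, so the Zfpm1 counts are less certain. The promoters of the pair whose order is described below are shown, since a GATA switch acts through GATA motifs near these genes. Each run holds the 250 bases before a start site of RefSeq (GRCm38.p6), 5′ to 3′ on the strand of the gene, with every CACCC on either strand, the motif of Krüppel-like factors, in capitals.
Gata1, chrX:7967911-7968160, minus strand: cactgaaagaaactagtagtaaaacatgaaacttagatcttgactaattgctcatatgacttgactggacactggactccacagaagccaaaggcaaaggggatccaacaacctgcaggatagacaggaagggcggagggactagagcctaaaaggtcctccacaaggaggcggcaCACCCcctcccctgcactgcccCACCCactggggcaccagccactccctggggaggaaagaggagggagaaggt
Gata2, distal start, chr6:88193641-88193890, plus strand: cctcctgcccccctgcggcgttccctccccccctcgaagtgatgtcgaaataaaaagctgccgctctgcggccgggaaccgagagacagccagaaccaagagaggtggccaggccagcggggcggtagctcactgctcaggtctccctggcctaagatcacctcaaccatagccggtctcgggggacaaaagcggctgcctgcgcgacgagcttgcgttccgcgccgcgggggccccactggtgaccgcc
Gata2, proximal start, chr6:88198414-88198663, plus strand: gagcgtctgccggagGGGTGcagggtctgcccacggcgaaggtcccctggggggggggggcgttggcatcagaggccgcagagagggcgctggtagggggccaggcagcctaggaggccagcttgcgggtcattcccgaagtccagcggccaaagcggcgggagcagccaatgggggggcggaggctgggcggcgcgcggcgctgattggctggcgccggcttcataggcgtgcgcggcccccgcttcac

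The GATA motif, as AGATAA or AGATAG and as TGATAA or TGATAG, was searched on both strands and matched 0 times in these windows and in that of Zfpm1, whereas 26.5% of 32851 mouse promoter windows of the same length held at least 1 match. CACCC matched 2 times in the Gata1 window, at -74 and -52 from the start, 0 times in the distal and 1 time in the proximal Gata2 window, and 3 times in the Zfpm1 window, against 52.0% of all windows with a match. A search of letters says nothing of enhancers elsewhere or of binding. The longest run of letters shared by Gata1 and Gata2 transcripts was 23 bases, cactacctgtgcaatgcctgtgg. It ended 1053 bases before the 3′ end of the Gata1 transcript and 2020 bases before that of the Gata2 transcript, so the 3′ ends from which this library counts molecules are distinct between the paralogues.

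Each transcript captured carries a random tag, its unique molecular identifier (UMI), and the values are numbers of distinct tags. The study's filter on cells kept 7645 of 8817 barcodes with 1592 to 49991 UMIs each, and Kit, the gene of the sorted surface protein, was seen in 65.8% of them. These cells held 6178 Gata1 UMIs, 13552 Gata2 UMIs and 17065 Zfpm1 UMIs, with at most 15, 34 and 29 UMIs of the respective gene in a cell. A UMI of Gata1 was seen in 27.4% of the cells kept, of Gata2 in 43.5% and of Zfpm1 in 49.6%. To compare shares of cells at 1 depth, each cell was thinned at random to 5000 UMIs, which left out 99 shallower cells, and the shares then stood at 12.01%, 29.0% and 31.3%. Levels are UMIs per 1000000 UMIs of the group (CPM). Intervals are exact 95% intervals and cover counting error only, not the spread between mice or libraries.

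Cells were placed by markers, among which none of the 3 genes figures. A thinned cell passed a gate with at least 3 UMIs from at least 2 of its marker genes, and is described under a gate if it passed no other. This gave 660 stem-gated cells (Hlf, Mecom, Procr and others), 606 megakaryocyte-gated cells (Pf4, Itga2b, Treml1), 1339 erythroid-gated cells (Car1, Klf1, Ermap), 416 basophil-mast-gated cells (Mcpt8, Prss34, Cpa3), 9 eosinophil-gated cells (Prg2, Prg3, Epx), 123 neutrophil-gated, 2040 monocyte-gated and 56 lymphoid-gated cells, while 1808 cells passed no gate and 489 passed several. Of the cells that passed several gates 20.9% were called doublets by Scrublet, against 2.38% of those in 1 gate. In the basophil-mast gate Cpa3, a carboxypeptidase of mast cells and their precursors, was seen in 99.3% of thinned cells and Mcpt8, a basophil protease, in 79.1%, whereas of the mast cell proteases Tpsb2 had 0 UMIs in it and Cma1 was found in 10 cells. In the eosinophil gate Ccr3 had 0 UMIs. A gate is a range of marker counts with cells close to its edge: 320 of the 811 cells that passed the stem gate did so with 3 or 4 UMIs, as did 199 of 831 for megakaryocyte, 142 of 1557 for erythroid and 69 of 559 for basophil-mast markers. Most cells of the neutrophil gate lay at its edge, with 114 of 143 passing on 3 or 4 UMIs.

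The library was first used to ask in which lineages each gene was found. Per UMI, Gata2 was highest in basophil-mast-gated cells, Gata1 in erythroid-gated cells and Zfpm1 in megakaryocyte-gated cells. Counted per cell, Zfpm1 was higher in erythroid-gated cells, at 6.81 UMIs against 5.72 in megakaryocyte-gated cells (ratio 1.19, interval 1.14 to 1.24). Stem-gated cells held Gata2 and Zfpm1 with little Gata1, and monocyte-, neutrophil- and lymphoid-gated cells were low in all 3 genes. Erythroid-gated cells held far more RNA than stem-gated cells, with a median of 31498 against 8467.5 UMIs. The megakaryocyte, erythroid, basophil-mast and eosinophil folds of the 3 genes over the stem gate are therefore given per UMI and per cell. Further ratios are per UMI unless stated otherwise.

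Gata2 stood at 572 CPM (interval 553 to 592) in the basophil-mast gate, at 260.2 CPM (interval 250.3 to 270.3) in the megakaryocyte gate, at 246 CPM (interval 234 to 259) in the stem gate and at 40.4 CPM (interval 38.5 to 42.4) in the erythroid gate. Cells of no gate had 59.9 CPM. The eosinophil gate had 32.1 CPM from 6 UMIs, and the monocyte, lymphoid and neutrophil gates had 6.98, 4.09 and 4.06 CPM. Megakaryocyte- and stem-gated cells, neighbours in this order, could not be told apart per UMI within counting error (ratio 1.06, interval 0.992 to 1.12). The ratio per UMI was 0.921 with a stricter gate and 1.13 with doublet calls left out, so its direction is not settled. Counted per cell the ratio was 1.82 (interval 1.71 to 1.94), at 4.37 against 2.39 UMIs. The erythroid and eosinophil gates could not be told apart per UMI either, nor could neighbours among the monocyte, lymphoid and neutrophil gates. Over the stem gate, Gata2 was 2.32-fold in the basophil-mast gate (interval 2.19 to 2.47) and 0.164-fold in the erythroid gate (interval 0.153 to 0.176). Counted per cell, these were 3.495-fold and 0.5001-fold, so an erythroid-gated cell still held 1.20 Gata2 UMIs on average against 2.39 in a stem-gated cell. As a mean of each cell's own CPM, the erythroid ratio was 0.324. That mean gives shallow and deep cells equal weight, and Gata2 per UMI was higher in the shallower erythroid-gated cells described below.

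Gata1 stood at 119.5 CPM (interval 116 to 123) in the erythroid gate, at 46.9 CPM (interval 42.8 to 51.3) in the megakaryocyte gate and at 32.1 CPM (interval 27.7 to 36.9) in the basophil-mast gate, and these neighbours differed beyond counting error. The stem gate had 6.55 CPM (interval 4.72 to 8.86), from 42 UMIs in 660 cells, and cells of no gate had 8.41 CPM. In the eosinophil gate 3 UMIs gave 16.0 CPM (interval 3.31 to 46.9). The lymphoid gate had 2 UMIs and the monocyte gate 2.13 CPM. Neutrophil-gated cells had 0 Gata1 UMIs, which allows a level of up to 1.22 CPM at a limit of 3 UMIs and 1.499 CPM by the exact interval. From the basophil-mast gate down to the monocyte gate, no pair of neighbours in the order differed beyond counting error. Over the stem gate Gata1 was 18.2-fold in the erythroid gate (interval 13.5 to 25.3), 7.16-fold in the megakaryocyte gate (interval 5.22 to 10.1) and 4.90-fold in the basophil-mast gate (interval 3.49 to 7.01). Per cell these ratios were 55.6, 12.4 and 7.37.

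Zfpm1 stood at 341 CPM (interval 330 to 353) in the megakaryocyte gate, at 230 CPM (interval 225 to 235) in the erythroid gate and at 158 CPM (interval 149 to 168) in the stem gate. The basophil-mast gate had 34.4 CPM (interval 29.9 to 39.4). Zfpm1 was at 48.1 CPM in the eosinophil gate from 9 UMIs, at 44.9 CPM in cells of no gate, at 19.1 CPM in the lymphoid gate, at 8.08 CPM in the monocyte gate and at 3.25 CPM in the neutrophil gate. The eosinophil gate and the cells of no gate could not be told apart, and each other pair of neighbours differed beyond counting error. Over the stem gate Zfpm1 was 2.16-fold in the megakaryocyte gate (interval 2.01 to 2.31), 1.45-fold in the erythroid gate (interval 1.36 to 1.55) and 0.217-fold in the basophil-mast gate (interval 0.186 to 0.253). Counted per cell, these folds were 3.72, 4.43 and 0.327, so the erythroid fold was then the largest. Basophil-mast-gated cells had 0.101 times the Zfpm1 level of megakaryocyte-gated cells (interval 0.0873 to 0.116) and 2.20 times their Gata2 level (interval 2.09 to 2.31).

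**Figure D1:**
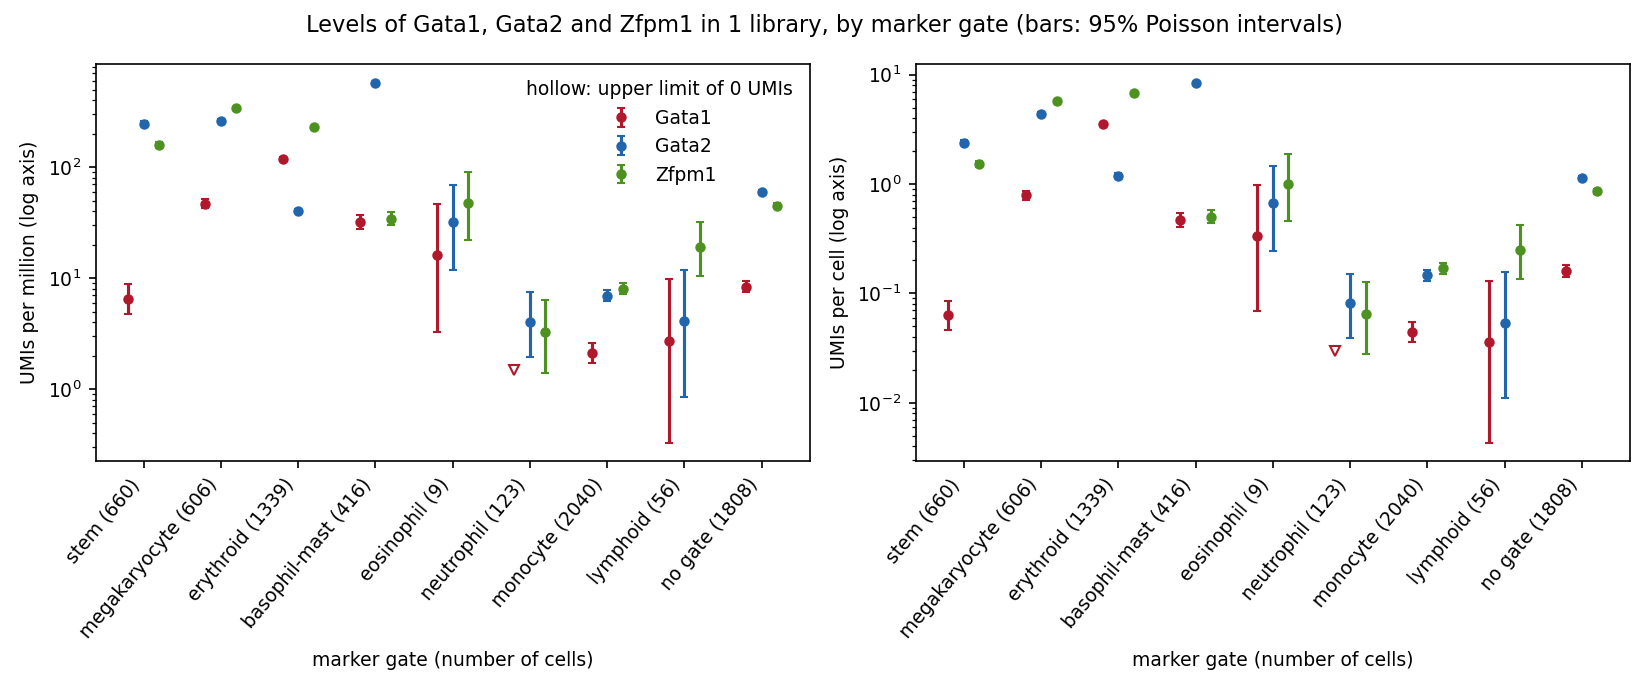
Levels of Gata1, Gata2 and Zfpm1 by marker gate in 1 library, as UMIs per 1000000 UMIs (left) and UMIs per cell (right), both on log axes, with exact 95% Poisson intervals as bars and the number of cells of each gate in brackets. Gata2 reaches 572 CPM in the basophil-mast gate, Gata1 119.5 CPM in the erythroid gate and Zfpm1 341 CPM in the megakaryocyte gate, and the hollow triangle marks the upper limit for the 0 Gata1 UMIs of the neutrophil gate.

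In the basophil-mast, megakaryocyte, erythroid and stem gates, the shares of thinned cells with a UMI stood in the order of the levels. Gata2 was seen in 83.2% of basophil-mast-gated cells (interval 79.2 to 86.6), 70.6% of megakaryocyte-gated, 65.3% of stem-gated and 18.8% of erythroid-gated cells (interval 16.8 to 21.0). Gata1 was seen in 40.9% of erythroid-gated cells (interval 38.2 to 43.5), 18.5% of megakaryocyte-gated, 15.4% of basophil-mast-gated and 3.18% of stem-gated cells. Zfpm1 was seen in 76.2%, 64.3%, 51.7% and 12.02% of megakaryocyte-, erythroid-, stem- and basophil-mast-gated cells. In neutrophil-gated cells, which should lack the genes, Gata1 was seen in 0 of 123 cells and Gata2 and Zfpm1 in 1.63% each, at a median depth of 19814 UMIs before thinning. The lymphoid-gated share of Zfpm1 was higher, at 12.5% (interval 5.18 to 24.1), close to that of basophil-mast-gated cells.

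The order of Gata2 and Gata1 was then followed as the share of Gata2 in the summed UMIs of both genes. UMI counts of different genes can differ in capture, so the share is read for how it moves between groups and not for which gene is the more abundant. It was 97.4% in stem-gated cells (interval 96.5 to 98.1), 94.7% in basophil-mast-gated (interval 93.9 to 95.4), 84.7% in megakaryocyte-gated (interval 83.4 to 86.0) and 25.3% in erythroid-gated cells (interval 24.2 to 26.4). For the 9 eosinophil-gated cells it was 66.7%, with an interval of 29.9 to 92.5.

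Cells were next ordered by how many erythroid marker UMIs they held at 5000 UMIs, leaving out cells that passed a gate other than erythroid or stem. The steps did not require the erythroid gate, and cells of both the stem and erythroid gates could enter them. There were 20 such cells, with Gata2 at 354 CPM, and how many fell in each step was not counted. Only the Gata2 share of a step, not the level, was recomputed under other settings. Gata2 was highest in the 100 cells with 3 to 5 erythroid marker UMIs, where Gata1 already stood at 11.2 times its level in stem-gated cells, and it was lower in each step beyond. In the 358 stem-gated cells with 0 erythroid marker UMIs, Gata2 stood at 241 CPM, Gata1 at 6.13 CPM and Zfpm1 at 153 CPM, and in the 1273 cells with 0 such UMIs outside the stem gate at 43.5, 5.65 and 32.9 CPM. The 813 cells with 1 or 2 erythroid marker UMIs, most of which passed no gate, lay between these for Gata2 and Zfpm1 and above both for Gata1. Gata2 was at 140.3 CPM (interval 133.5 to 147.4), Gata1 at 12.5 CPM, Zfpm1 at 98.2 CPM and the Gata2 share at 91.8%. Gata2 and Zfpm1 were thus lower in that step than in stem-gated cells, and no steady course from the stem gate to 3 to 5 marker UMIs was seen. In the cells with 3 to 5 such UMIs Gata2 was at 319 CPM (interval 288 to 353) and Gata1 at 68.6 CPM (interval 54.5 to 85.1), 1.33-fold (interval 1.172 to 1.497) and 11.2-fold (interval 6.91 to 18.8) over those stem-gated cells.

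From there the levels of the pair moved in opposite directions. Gata2 was at 134 CPM in the 138 cells with 6 to 11 marker UMIs, 38.3 CPM in the 518 cells with 12 to 23 and 19.2 CPM in the 627 cells with 24 and over. The last was 0.0601 times the level at 3 to 5 marker UMIs (interval 0.0521 to 0.0694). Gata1 was at 93.0, 115 and 127 CPM in the same steps, 1.85-fold from the first to the last (interval 1.48 to 2.33). The Gata2 share thus went from 97.5% in the stem-gated cells to 82.3% (interval 78.5 to 85.7), 59.0% (interval 55.0 to 63.0), 24.9% (interval 23.2 to 26.7) and 13.2% (interval 11.96 to 14.41).

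The UMIs per cell were higher along these steps as well, from a median of 10050.5 UMIs per cell at 3 to 5 erythroid marker UMIs to 33568 at 24 and over. Gata2 UMIs per cell were 3.82 at 3 to 5, 2.59 at 6 to 11, 1.17 at 12 to 23 and 0.632 at 24 and over, so Gata2 was lower per cell as well, at 0.165 times between the first and last of these steps (interval 0.143 to 0.191). Gata1 went from 0.820 to 4.17 UMIs per cell, 5.09-fold, and Zfpm1 from 2.22 to 7.91, 3.56-fold. Per UMI Zfpm1 went from 186 CPM to 168, 227 and 240.4 CPM, with no difference beyond counting error between the steps of 3 to 5 and 6 to 11 (ratio 0.903, interval 0.767 to 1.06). In the step of 6 to 11 marker UMIs 7.25% of cells were doublet calls, against 1% at 3 to 5, 5.41% at 12 to 23 and 1.12% at 24 and over. With doublet calls left out before gating, the Gata2 share at 3 to 5 marker UMIs was 76.8%. The place of a step on the marker axis depends on depth: with cells thinned to 2500 UMIs, the share at 3 to 5 marker UMIs was 56.7%.

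**Figure D2:**
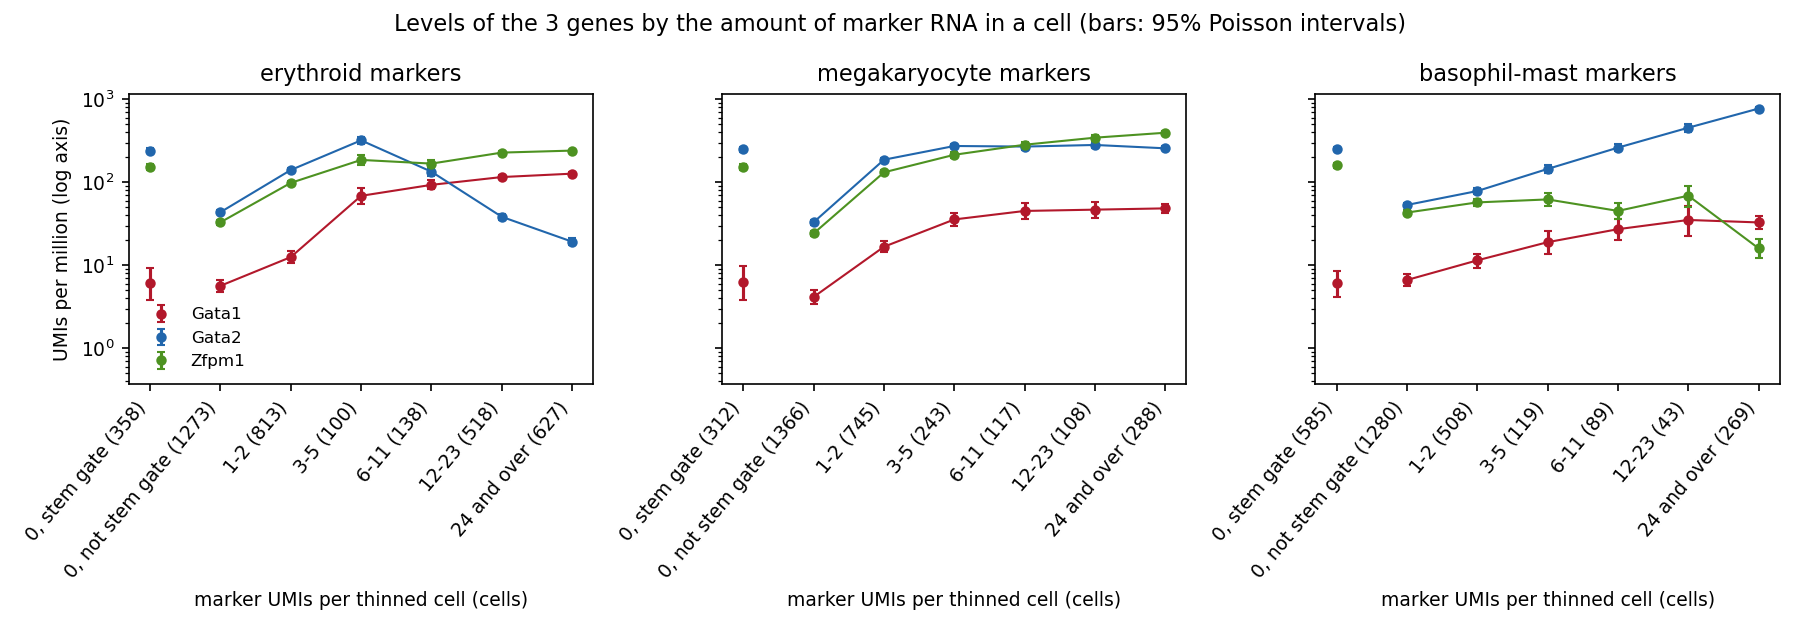
Levels of Gata1, Gata2 and Zfpm1 in UMIs per 1000000 UMIs (log axis, bars are exact 95% Poisson intervals) against the number of erythroid, megakaryocyte or basophil-mast marker UMIs in cells thinned to 5000 UMIs, with cells per step in brackets and stem-gated cells with 0 such UMIs at the left of each panel. Gata2 is lower at each step of erythroid markers beyond 3 to 5, from 319 to 19.2 CPM, lies between 256 and 281 CPM from 3 to 5 megakaryocyte markers on, and reaches 772 CPM in the last step of basophil-mast markers.

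Along megakaryocyte markers the order was another one. Gata2 was at 273 CPM in cells with 3 to 5 marker UMIs and at 269, 281 and 256 CPM in the further steps, with a last to first ratio of 0.937 (interval 0.861 to 1.02). Gata1 was at 35.6, 45.1, 46.7 and 48.4 CPM, 1.36-fold from first to last (interval 1.09 to 1.71), and no pair of neighbouring steps from 3 to 5 on differed per UMI beyond counting error. Zfpm1 was higher in each step, at 214, 283, 344 and 394.5 CPM, 1.84-fold from first to last (interval 1.69 to 2.01), and each step differed from the one before beyond counting error. The median UMIs per cell went from 11578 in the first of these steps to 19117 in the last. Counted per cell, the last to first ratios were 1.43 for Gata2 (interval 1.31 to 1.55), 2.07 for Gata1 (interval 1.65 to 2.60) and 2.80 for Zfpm1. The Gata2 share was between 84.1% and 88.5% over these 4 steps, against 97.5% in stem-gated cells with 0 megakaryocyte marker UMIs.

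Along basophil-mast markers Gata2 was higher in each step, at 145, 261, 454 and 772 CPM from 3 to 5 marker UMIs on, 5.34-fold from first to last (interval 4.74 to 6.03). Gata1 was at 18.9, 27.2, 35.1 and 32.8 CPM, 1.73-fold (interval 1.20 to 2.55). The median UMIs per cell went from 17206 in the first of these steps to 11840 in the last. Counted per cell, Gata1 was 1.27-fold (interval 0.88 to 1.87), within counting error, and Gata2 3.93-fold (interval 3.49 to 4.43). Zfpm1 was at 62.1, 45.1 and 68.8 CPM in the first 3 of these steps and at 16.0 CPM (interval 12.1 to 20.7) in the last, 0.257 times the first (interval 0.185 to 0.354). Cells with many basophil-mast marker UMIs thus had high Gata2, low Zfpm1 and some Gata1, with a Gata2 share of 95.9% (interval 95.1 to 96.6) in the last step.

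**Figure D3:**
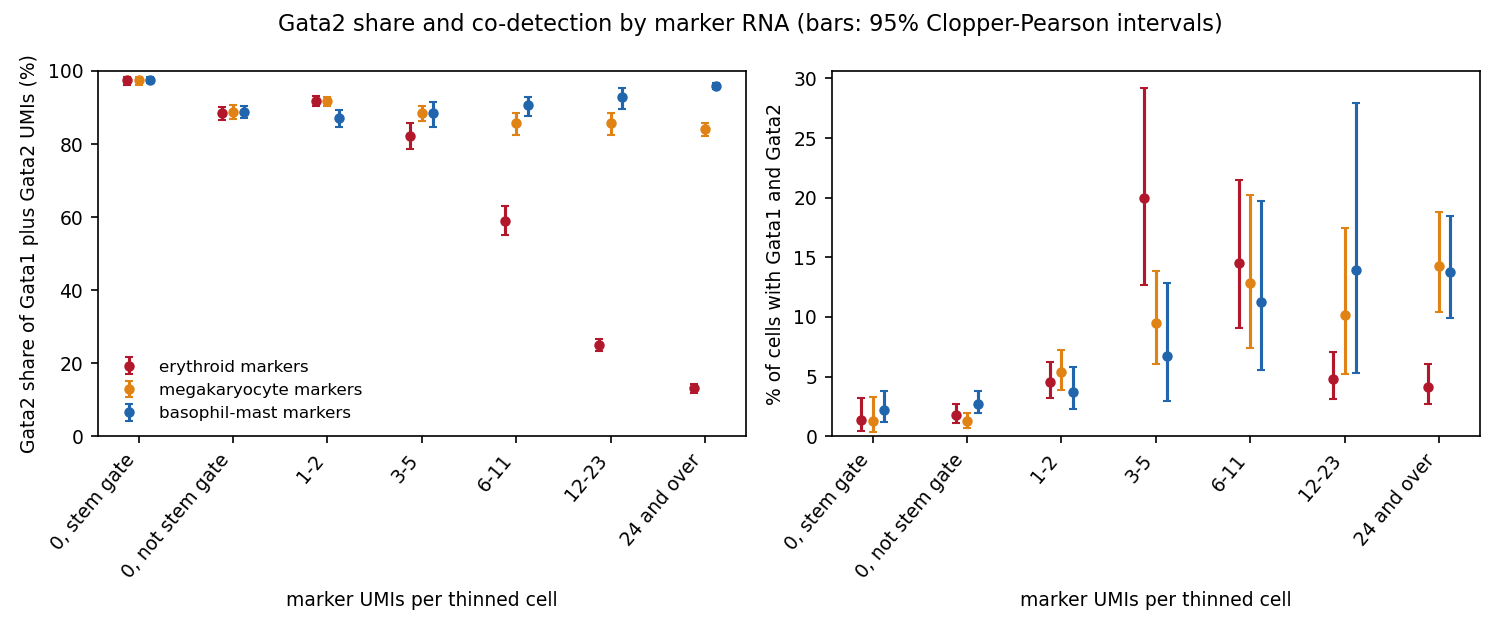
Share of Gata2 in the summed Gata1 and Gata2 UMIs (left, in %) and share of thinned cells in which both were seen (right, in %) against marker UMIs per cell, for erythroid, megakaryocyte and basophil-mast markers, with exact 95% Clopper-Pearson intervals as bars. Along erythroid markers the Gata2 share goes from 97.5% in stem-gated cells to 13.2%, and the share of cells with both genes is highest at 3 to 5 marker UMIs with 20.0%.

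Whether Gata1 and Gata2 were found in the same cells was counted at 5000 UMIs per cell. Both were seen in 13.9% of basophil-mast-gated cells (58 of 416, interval 10.8 to 17.7), 12.4% of megakaryocyte-gated (75 of 606, interval 9.86 to 15.3), 6.42% of erythroid-gated (86 of 1339, interval 5.17 to 7.87) and 1.97% of stem-gated cells (13 of 660, interval 1.05 to 3.35). The product of the separate shares, which is what unlinked detection would give, was 12.8%, 13.1%, 7.69% and 2.08%. In these gates the product lay within the interval of the share with both, which is no test of linkage. The erythroid share with both was below its product, and Gata2 was seen in 15.7% of erythroid-gated cells with Gata1 against 18.8% of all erythroid-gated cells. In cells of no gate, 3.15% had both (57 of 1808, interval 2.40 to 4.07) against a product of 0.990%. At full depth the shares with both were 32.9%, 43.1%, 33.5% and 5% in the basophil-mast, megakaryocyte, erythroid and stem gates, which shows how much of a share is set by depth. Products were not taken at full depth, where Gata1 was seen in 88.3% and Gata2 in 41.6% of erythroid-gated cells. In monocyte-gated cells 4 of 2040 thinned cells held both, or 0.196% (interval 0.053 to 0.501) against a product of 0.029%. Of the 9 eosinophil-gated cells 0 held both, which allows a share of up to 33.3% at a limit of 3 cells and 33.6% by the exact interval.

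Among cells with Gata1, Gata2 was seen in 90.6% of basophil-mast-gated, 67.0% of megakaryocyte-gated, 61.9% of stem-gated and 15.7% of erythroid-gated cells. In the erythroid gate 461 cells had Gata1 without Gata2, 166 had Gata2 without Gata1 and 626 had neither. The cells with Gata2 alone and those with both were shallower, at medians of 13158.5 and 13994 UMIs, than those with Gata1 alone at 33158. Their erythroid marker UMIs had a median of 2503 CPM with Gata2 alone, 3233 CPM with both and 5011 CPM with Gata1 alone. Along the erythroid steps, both genes were seen in 1.40% of stem-gated cells, 20.0% of cells with 3 to 5 marker UMIs (interval 12.7 to 29.2), 14.5% at 6 to 11 (interval 9.08 to 21.5), 4.83% at 12 to 23 and 4.15% at 24 and over. The products there were 1.86%, 17.5%, 15.6%, 6.39% and 4.10%. In cells with 1 or 2 marker UMIs both were seen in 4.55% (interval 3.22 to 6.22), above the product of 2.66%. In cells with 0 such UMIs outside the stem gate it was 1.81% (interval 1.15 to 2.70) against 0.475%.

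Zfpm1 was seen with its GATA partners to different degrees. Gata1 and Zfpm1 were seen together in 28.1% of erythroid-gated cells (interval 25.7 to 30.6), 15.5% of megakaryocyte-gated (interval 12.7 to 18.6), 1.92% of basophil-mast-gated and 1.52% of stem-gated cells. Of the cells with Gata1, Zfpm1 was seen in 68.7% in the erythroid gate, 83.9% in the megakaryocyte gate and 12.5% in the basophil-mast gate. Gata2 and Zfpm1 were seen together in 54.0% of megakaryocyte-gated (interval 49.9 to 58.0), 36.1% of stem-gated, 12.1% of erythroid-gated and 10.3% of basophil-mast-gated cells. All 3 genes were seen in 10.1% of megakaryocyte-gated, 3.96% of erythroid-gated, 1.92% of basophil-mast-gated and 0.909% of stem-gated cells, and none of them in 6.44%, 18.7%, 13.7% and 18.5%.

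**Figure D4:**
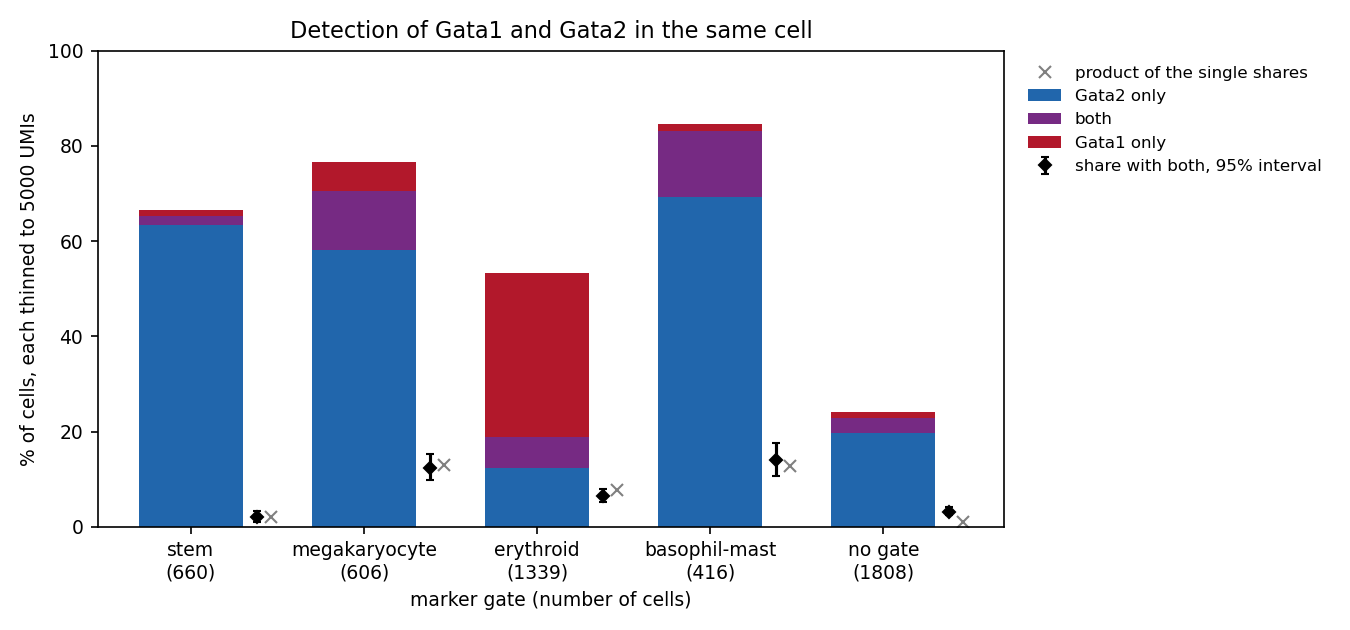
Share of cells, each thinned to 5000 UMIs, in which Gata2 alone, both Gata1 and Gata2, or Gata1 alone were seen, as bars stacked from 0 by marker gate, with the number of cells in brackets. The diamond gives the share with both and its exact 95% interval and the cross the product of the separate shares, which lies inside the interval in the 4 gates but not in cells of no gate (3.15% against 0.990%).

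Eosinophil development is known to need Gata1, but few such cells were in this fraction. In the 9 cells that passed the eosinophil gate alone, Gata1 was 2.45-fold per UMI over the stem gate with an interval of 0.485 to 7.66. This depended on which few cells were gated: the ratio was 5.41 (interval 1.88 to 13.9) with a stricter gate, 5.81 (interval 1.79 to 14.7) with doublet calls left out, 3.88 (interval 1.21 to 9.66) with all barcodes, 4.80 (interval 1.85 to 11.2) at 2500 UMIs and 4.93 (interval 2.90 to 8.16) with cells of several gates put in 1 gate. With another seed it was 1.64 (interval 0.192 to 6.30). In the 9 cells Gata2 was 0.130-fold (interval 0.0477 to 0.284) and Zfpm1 0.304-fold (interval 0.139 to 0.580). These folds depended on the setting too, with Gata2 at 0.244 with another seed and 0.286 with cells of several gates put in 1 gate. Zfpm1 was 0.175-fold at 2500 UMIs and 0.479-fold with doublet calls left out. Counted per cell in the 9 cells, the Gata1 fold was 5.24 (interval 1.04 to 16.4). Those of Gata2 and Zfpm1 were 0.279 (interval 0.102 to 0.608) and 0.651 (interval 0.297 to 1.24). After the data had been seen, all 48 cells that passed this gate were also taken, 24 of which passed the basophil-mast gate and no other besides. They had Gata1 at 34.7 CPM (interval 22.6 to 50.8), Gata2 at 108 CPM (interval 85.8 to 134) and Zfpm1 at 33.4 CPM (interval 21.6 to 49.2), or 5.29-fold (interval 3.12 to 8.83), 0.439-fold and 0.211-fold over the stem gate. The 24 cells of both gates had Gata2 at 136 CPM, 0.237 times the level of the basophil-mast gate (interval 0.174 to 0.317), and Gata1 at 44.3 CPM, where the ratio of 1.38 (interval 0.758 to 2.33) was within counting error. None of these 24 thinned cells held both, which allows up to 12.5% at a limit of 3 cells and 14.2% by the exact interval.

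Cells that passed a pair of gates lay between the levels of those gates for some genes, but not for all. The 58 cells with both megakaryocyte and erythroid markers had Gata1 at 70.4 CPM, 1.5-fold over the megakaryocyte gate (interval 1.15 to 1.94) and 0.589 times the erythroid gate (interval 0.456 to 0.748). Their Gata2, at 259.7 CPM, was 6.43-fold over the erythroid gate (interval 5.61 to 7.35) and 0.998 times the megakaryocyte gate (interval 0.874 to 1.14). Of these 58 cells 6.90% were doublet calls, against 1.32% in the megakaryocyte gate and 3.21% in the erythroid gate. The 105 cells with both stem and megakaryocyte markers had Gata1 at 21.9 CPM, 3.34-fold over the stem gate (interval 2.01 to 5.49), Gata2 at 317 CPM and Zfpm1 at 261 CPM. That Gata2 level was above those of the stem gate (246 CPM) and the megakaryocyte gate (260.2 CPM). Of the 93 cells with both erythroid and monocyte markers 37.6% were doublet calls. Their levels were 50.4 CPM for Gata1 and 13.8 CPM for Gata2, and the part of doublets in them was not tested.

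Within the stem gate, cells with a Vwf UMI (181 cells), a marker of stem cells that lean to platelets, were set beside those without (479 cells). Gata2 was at 293 against 229 CPM (ratio 1.28, interval 1.15 to 1.42) and Zfpm1 at 193 against 145 CPM (ratio 1.33, interval 1.16 to 1.51). For Gata1, at 4.59 CPM from 8 UMIs against 7.29 CPM, the ratio of 0.630 had an interval of 0.252 to 1.39. In the basophil-mast gate, the 10 cells with a UMI of Cma1, a mast cell protease, had Gata2 at 879 CPM (interval 725 to 1056) and Gata1 at 84.8 CPM (interval 42.3 to 152), against 565.5 and 30.9 CPM in the remaining 406 cells. Of the 114 Gata2 UMIs in the 10 cells, 34 came from 1 cell, a spread that the interval does not cover. The median was 8.5 Gata2 UMIs per cell against 8, at median depths of 8926.5 against 13009 UMIs.

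Genes around the 3 members were described from lists, each against the stem gate. A gene was counted as higher or lower at 2-fold or more, given at least 50 UMIs over both gates. In the erythroid gate 12.6% of 11459 genes were higher and 32.8% were lower by this rule, with a median ratio over all genes of 0.786. For the megakaryocyte gate these shares were 4.6% and 11.7% of 10964 genes, for the basophil-mast gate 6.94% and 19.1% of 10560, and for the 9 cells of the eosinophil gate 6.19% and 20.6% of 9580. The median ratios over all genes there were 0.955, 0.854 and 0.868.

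Among 12 partners of GATA factors in DNA-bound complexes, 3 were higher and 5 lower in the erythroid gate, with a median ratio of 0.629. The higher ones were Gfi1b, a repressor needed for red cells and platelets, at 3.30-fold (interval 2.89 to 3.78), Tcf3, an E protein that pairs with TAL1, at 2.61-fold, and Ssbp3, which stabilises LDB1, at 2.18-fold. Fli1, an ETS factor of megakaryocytes, stood at 9.76 CPM against 157 CPM in the stem gate, or 0.0623-fold (interval 0.0553 to 0.0701). Runx1 was 0.305-fold, Lyl1 0.293-fold, Cbfa2t3 0.288-fold and Lmo2, the bridge between TAL1 and LDB1, 0.349-fold. Tal1 itself was 1.18-fold and Ldb1 1.49-fold. In the megakaryocyte gate 0 partners were higher and 1, Lyl1, was lower (median ratio 0.884), while Gfi1b at 1.84-fold and Fli1 at 1.79-fold stayed under the limit. In the basophil-mast gate Runx1 was higher at 2.37-fold (interval 2.20 to 2.56), and Lmo2 (0.212-fold), Lyl1 and Tal1 (0.480-fold) were lower, with a median ratio of 0.632. In the eosinophil gate 7 of 12 were lower and 0 higher, on 2 to 56 UMIs each.

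FOG1 is known to act through NuRD and CtBP, and genes of these co-repressors were counted in the same way. Of 14 genes, 2 were higher and 1 lower in the erythroid gate (median ratio 1.25), 0 and 0 in the megakaryocyte gate (1.23) and 0 and 0 in the basophil-mast gate (1.004). Among all genes the shares higher and lower were 12.6% and 32.8%, 4.6% and 11.7%, and 6.94% and 19.1% in these gates. With 14 genes, the counts of higher genes were near these shares. The erythroid ones were Mbd2 at 2.97-fold (interval 2.72 to 3.25), a subunit that binds methylated DNA, Ctbp1 at 2.02-fold (interval 1.85 to 2.20) and Ctbp2 at 0.287-fold (interval 0.239 to 0.345). The CtBP paralogues thus stood in opposite directions, at 185 CPM for Ctbp1 and 8.42 CPM for Ctbp2. In the eosinophil gate 2 of the 14 were lower, on 4 and 5 UMIs.

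Red cell genes that had not been used for gating stood high in the erythroid gate. Of 15 such genes 13 were higher in the erythroid gate, with a median ratio of 25.6. The adult globin gene Hba-a1 stood at 917 CPM, 53.0-fold over the stem gate, and Hbb-bs at 1205 CPM, 49.8-fold, though near-identical globin copies may share reads. Tfrc, the transferrin receptor, was 17.8-fold. The list held 2 genes that were lower, Bcl2l1, a survival factor, at 0.362-fold and Nfe2, a factor of platelet and globin genes, at 0.286-fold. Of the 11 tested in the megakaryocyte gate 0 were higher and 1 was lower, and in the basophil-mast gate 0 were higher and 2 lower. In the eosinophil gate 1 of 10 was higher and 3 were lower.

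Genes known to be repressed by GATA1 were described next. Of 4 such genes, Kit (0.25-fold), Spi1 (0.146-fold) and Hhex (0.238-fold) were lower in the erythroid gate and Myc stood at 0.789-fold, beside a share of 32.8% lower among all genes. In the megakaryocyte gate the same 3 genes were lower, from 0.458-fold for Hhex to 0.478-fold for Spi1. In the basophil-mast gate Spi1, which encodes PU.1, was higher at 2.27-fold (interval 2.03 to 2.54) and Kit lower at 0.338-fold. Spi1 was also higher in the eosinophil gate, at 3.27-fold (interval 2.35 to 4.44, from 45 UMIs), where Kit and Hhex were lower.

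Of 8 megakaryocyte genes outside the gate, 3 of the 7 tested were higher in the megakaryocyte gate: Gp1ba, a platelet receptor subunit, at 5.92-fold, Plek, a platelet kinase substrate, at 5.48-fold, and Vwf at 3.05-fold. Nbeal2, needed for platelet granules, was lower at 0.472-fold. In the erythroid gate 6 of 7 were lower, with Itgb3, an integrin subunit of platelets, at 0.0124-fold, in the basophil-mast gate 3 of 6, and in the eosinophil gate 5 of 6. Of 6 basophil and mast cell genes outside the gate, 5 were higher in the basophil-mast gate. Hdc, which makes histamine, was at 362 CPM against 1.87 CPM, 193-fold (interval 110 to 375), Alox5 of leukotriene synthesis was 212-fold and the adaptor gene Lmo4 16.2-fold. Il1rl1, the interleukin 33 receptor, was 48.0-fold, and Gzmb was at 43.3 CPM, with 0 UMIs in the stem gate. Il1rl1 was also 27.3-fold in the erythroid gate, 1 higher and 2 lower of the 5 tested there, and Alox5 11.9-fold in the megakaryocyte gate, 1 of 3 tested. In the eosinophil gate Hdc was higher and Slc18a2 lower, of 3 tested.

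**Figure D5:**
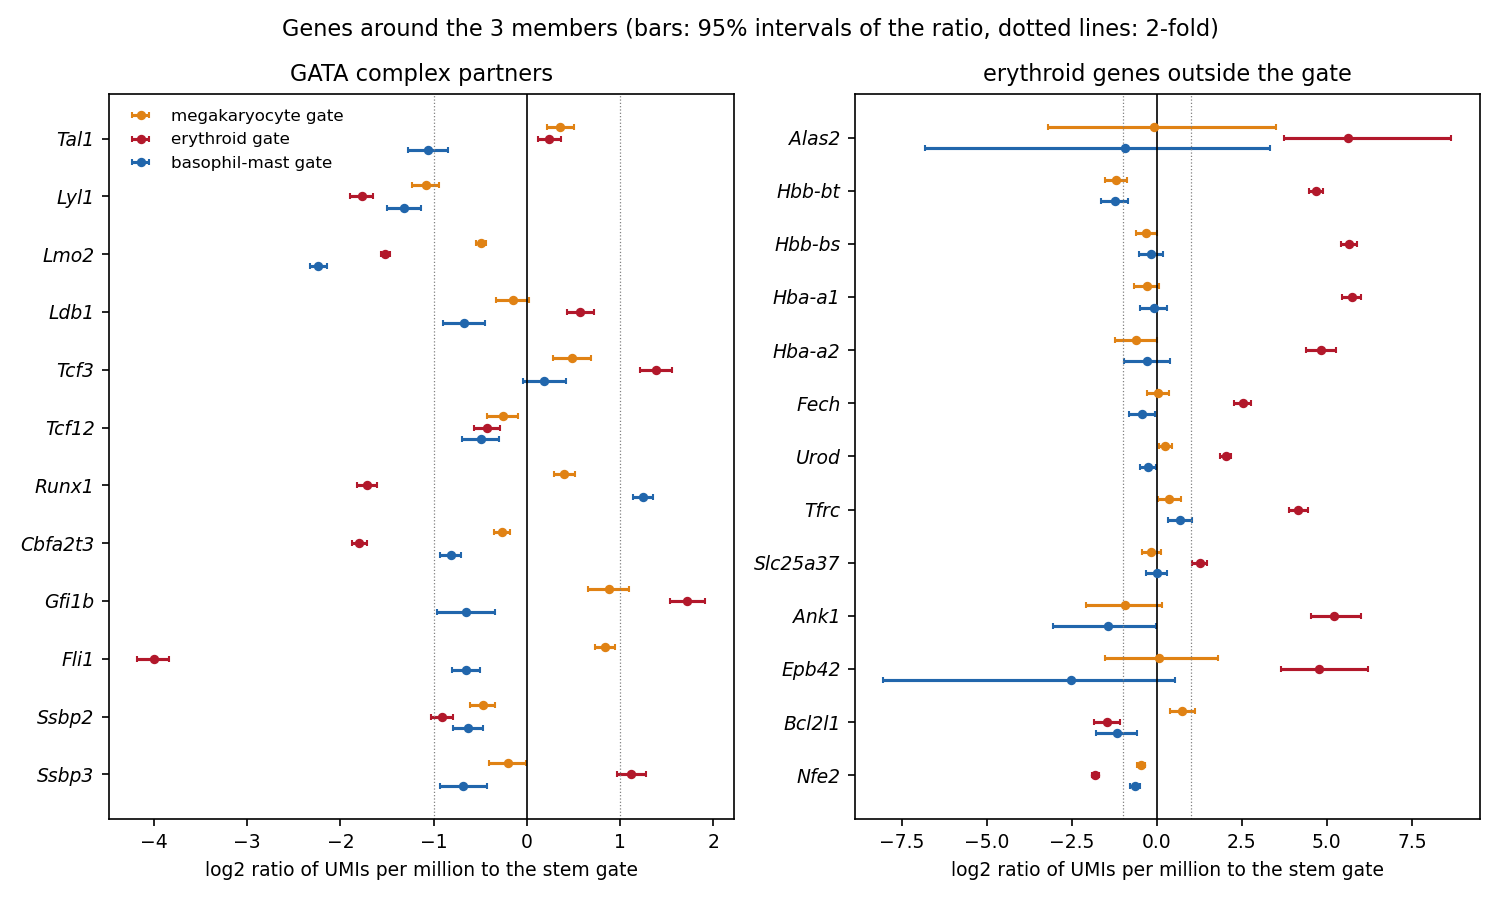
Log2 ratios of CPM to the stem gate for 12 partners of GATA factors and 13 of the 15 red cell genes outside the gate, in the megakaryocyte, erythroid and basophil-mast gates, with exact 95% intervals as bars and dotted lines at 2-fold. Fli1 stands apart at 0.0623-fold in the erythroid gate, and each red cell gene plotted but Bcl2l1 and Nfe2 lies above 2-fold there.

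The pattern of each member over the 8 gates and the cells of no gate (9 points that share 1 library) was compared with that of 10129 other genes by Pearson's r of log2(CPM + 10), as a description. Nearest to Gata1 were Chek2 (r = 0.996), Cpsf2, Rb1, Icam4 and Ctbp1 (r = 0.952). Nearest to Gata2 were Slc18a2 (r = 0.963), Pafah2, Syde2, Nudt7 and Alg2 (r = 0.935). Nearest to Zfpm1 were Tmc4 (r = 0.978), Tom1l1, Tal1 (r = 0.964), Aldh1a1 and Ccdc127. Levels of these genes could be close in order yet narrow in range: Chek2 went from 17.5 CPM in the stem gate to 36.9 CPM in the erythroid gate, a narrower span than that of Gata1. Between members r was 0.498 for Gata1 and Gata2, 0.765 for Gata1 and Zfpm1 and 0.626 for Gata2 and Zfpm1.

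Of the other GATA and FOG genes, Gata4, Gata5 and Gata6, known from heart and gut, had 0 UMIs in the 7645 cells and Zfpm2 had 1. Gata3, known from T cells, had 802 UMIs in 596 cells and stood at 41.7 CPM in the stem gate, 11.8 CPM in the megakaryocyte gate (0.283-fold), 3.29 CPM in the basophil-mast gate and 0.580 CPM in the erythroid gate (0.0139-fold, interval 0.00867 to 0.0213). Trps1, a repressor of the GATA family, stood at 39.6 CPM in the basophil-mast gate, 2.99-fold over the stem gate (interval 2.33 to 3.88), and was lower in the megakaryocyte and erythroid gates. Of the 2 tested genes of this group, 2 were lower in the megakaryocyte gate, 2 in the erythroid gate and 1 in the basophil-mast and eosinophil gates, with Trps1 the higher one among basophil-mast-gated cells.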

How the data were processed

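Single-cell RNA-seq was analysed for 1 library, replicate 1 of the control lineage-negative, Kit-positive group. The authors prepared it with the 10x Chromium 3′ v3.1 kit and ran Cell Ranger 6.0.2 against an mm10 transcriptome. The authors deposited raw UMI counts, which still hold the barcodes that their filter on cells removes. The labels also describe a bulk RNA kit, but the matrix header and the values are those of a single-cell library.

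As in the methods of the study, cells needed more than 1000 genes and UMIs, fewer than 6500 genes, fewer than 50000 UMIs and less than 7% mitochondrial UMIs. Scrublet (through scanpy 1.11.5, with the rate expected set to 6%) marked 268 cells (3.51%) as doublets, which stayed in. Gates used 6 to 9 markers each on cells thinned to 5000 UMIs (random seed 1), and levels used all UMIs. Poisson, Clopper-Pearson and conditional binomial intervals at 95% came from scipy 1.17.1. A count of 0 was given the level of 3 UMIs as its limit. With 1 library no test, replicate error or batch comparison was possible.

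The members, markers and gene lists were chosen with earlier results of these data known. Named genes were the members, the list genes and, per member, the 5 genes with the highest r among those with 500 UMIs or more that mark no gate. The ratio and thinning steps were tested on simulated data. Other gates, seeds, depths, filters and denominators were tried. The values of some single genes of these lists are not reported here.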

Additional observations from a re-analysis of the deposited data

Results flagged for a closer look

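The cell filter removed 213 barcodes at or above 50000 UMIs or 6500 genes (median 54247 UMIs), which enter no comparison above. They held a signal of all 3 genes, beyond the level of 0.247 CPM that 3 UMIs would give. Gata1 stood at 91.9 CPM in them (interval 86.6 to 97.5), Gata2 at 37.3 CPM (interval 33.9 to 40.9) and Zfpm1 at 196 CPM (interval 189 to 204), against 40.7, 89.2 and 112 CPM in the cells kept. With all deposited barcodes gated, which brings in every barcode removed and not only these 213, the erythroid gate grew from 1339 to 1561 cells. The megakaryocyte gate grew from 606 to 641 and the stem gate from 660 to 673. What the 213 barcodes are was not tested.

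The 908 barcodes removed for a mitochondrial share of 7% or more, at a median of 2400 UMIs, had Gata1 at 33.7 CPM, Gata2 at 72.3 CPM and Zfpm1 at 144 CPM.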

How the results depend on the processing

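Of 431 values recomputed under other settings, 350 stayed within the counting interval or count of the value reported, 81 moved outside it, and 0 of the values whose interval excluded 1 changed direction. With a gate of 6 or more UMIs from 3 or more genes, the Gata2 fold over the stem gate was 0.921 for megakaryocyte and 0.105 for erythroid, the Zfpm1 fold 1.30 for erythroid and 0.180 for basophil-mast, and both GATA genes were seen in 4.30% of erythroid-gated cells. With doublet calls left out, the megakaryocyte Gata2 fold was 1.13, both were seen in 15.3% of megakaryocyte-gated cells, and the Gata2 share at 3 to 5 erythroid marker UMIs was 76.8%. With cells of 5000 UMIs or more and less than 5% mitochondrial UMIs, the megakaryocyte Zfpm1 fold was 2.33, the erythroid Gata1 fold 13.2 and Gata2 fold 0.177, both were seen in 8.65% of erythroid-gated cells, and the Gata2 share at 24 and over was 15.2%. The erythroid Gata2 fold was 0.147 with another seed, 0.142 with all deposited barcodes and 0.324 as a mean of per-cell CPM, which weights shallow cells as much as deep ones. The basophil-mast folds were 0.254 for Zfpm1 with all barcodes, and for Gata2 2.57 as a mean of per-cell CPM and 2.17 with cells of several gates put in the gate with most marker UMIs, where the eosinophil Gata2 fold was 0.286. It was 0.439 with all 48 cells of that gate, an alternative chosen after seeing the data. Thinned to 2500 UMIs, cells gave Gata2 folds of 0.980 (megakaryocyte) and 0.124 (erythroid), co-detection of 4.74%, 2.18% and 5.95% in megakaryocyte-, erythroid- and basophil-mast-gated cells, and Gata2 shares of 56.7% at 3 to 5 and 17.4% at 24 and over. With 200 UMIs as the minimum, 1 other GATA or FOG gene was lower in the erythroid gate. Except where fewer UMIs or cells enter by construction, the cause was not tested. No paired analysis was possible because there is 1 sample, and no replicate could be left out.

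The megakaryocyte to stem ratio of Gata2 per UMI lay on either side of 1. Per cell it was 1.82 (interval 1.71 to 1.94) at the main setting. The eosinophil gate held 9 cells, and whether the interval of its Gata1 fold excluded 1 changed with the setting (folds of 1.64 to 5.81). Counts of 0 to 3 UMIs bound a level and do not show absence.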
